A study of Glycine max with 11 samples.

Results

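Auxin response factors (ARFs) are DNA-binding proteins that sit on auxin response elements in promoters and switch the genes beneath them on or off. When auxin is scarce, Aux/IAA repressors hold the ARFs in check, and when auxin is present the TIR1/AFB receptors send those repressors to degradation. In Arabidopsis, ARF19 belongs to the class that activates transcription, whereas ARF4, ARF9, ARF10 and ARF16 are usually placed among the repressors, and ARF10 and ARF16 transcripts are cut by the microRNA miR160.

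Described here are 6 soybean ARF genes of the 56044 genes counted, each found in the count table by its identifier, which there carries an ending for the transcript counted. Glyma.13G112600.1 and Glyma.09G072200.1 were annotated by the study as homologues of ARF19, Glyma.12G171000.1 as ARF4, Glyma.10G210600.1 as ARF16, Glyma.13G325200.1 as ARF10 and Glyma.03G208800.1 as ARF9. The ending is left out from here on. The study's running text also calls Glyma.10G210600 ARF8 once, and the name ARF16 is used here because its list of network transcription factors gives ARF16 as the Arabidopsis match. The study had singled out these genes because their levels in freshly harvested seeds tracked storage longevity, the ARF19 homologues positively and the others negatively, so their course over the fresh stages is a description and carries no test. Protein and promoter sequences were not used here.

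All 11 RNA-seq libraries were made from whole seeds of the field-grown cultivar BRS284, with no transgene or mutation in any group. In the dried group (2 libraries), seeds picked at stage 7.2 were dried fast at 40% relative humidity and 30 °C down to a moisture content of 10% on a dry weight basis. Freshly harvested seeds were frozen without that drying. Stages 7.2 and 9 are represented by 2 such libraries and stages 7.1, 7.3, 8.1, 8.2 and 8.3 by a single one, where stage 7.1 falls in seed filling, at its middle by the series record and at its end by the study's text, and stage 9 is the end of maturation. Seeds at each stage were harvested from many plants, so a library averages over plants and over the tissues of the whole seed.

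Library totals ran from 12881662 to 60626937 counts, and both extremes were dried libraries. The dried replicates differed more than the others, with a median absolute log2 difference of 0.35 across genes averaging at least 100 normalized counts, against 0.12 between the fresh stage 7.2 replicates and 0.11 between those of stage 9. At stage 7.1 the 10 most abundant genes took 33.9% of all counts, against 10.3% to 16.0% in every other library. Lectin (Glyma.02G012600), a seed storage-phase marker, was present in every library, at 2139 normalized counts or more. A small subunit gene of Rubisco (Glyma.13G097100) was taken as a marker of green tissue. It had 1302 and 2836 normalized counts in dried seeds and 2284 and 2592 in fresh stage 7.2 seeds, so these groups overlapped. Fresh seeds of stage 7.1 held 635 and those of 7.3 held 1727, while the 5 libraries from stage 8.1 on, where the ARF19 homologues were high, held 374 in 8.1, 95 in 8.2, 309 in 8.3, and 352 and 430 in stage 9 seeds. The study describes seeds as green at stage 7.1 and yellow at 7.3, so this gene did not follow seed colour there. It was lower at stage 9 than in dried seeds, but it was taken from the study's list of genes that differed in that comparison. That difference is therefore not independent of how the gene was chosen. The part of this gene in the ARF levels was not tested. Values are given as normalized counts, that is, counts divided by a DESeq2 size factor for each library, and are compared within a gene only, since no transcript lengths were used.

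During maturation the 2 ARF19 homologues climbed more than 10-fold while the other 4 genes dropped early. Glyma.13G112600 had 133 normalized counts in stage 7.1 seeds, 330 and 277 in 7.2, 909 in 7.3, 1781 in 8.1, 1899 in 8.2, 1561 in 8.3, and 1458 and 1257 in stage 9 seeds. The level was lowest at stage 7.1 and highest at stage 8.2. Stages 8.1 and 8.2 were not separated beyond counting error, since their 95% exact Poisson intervals, 1678 to 1889 and 1814 to 1986, overlapped. From stage 8.2 onward the values declined in order, and the stage 9 mean was 1358 ± 142 (SD, n = 2). Intervals of single levels, read ratios and read shares cover counting error only, not the spread between seed lots, which cannot be seen at the 5 stages with 1 library.

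Glyma.09G072200, the other ARF19 homologue, had 75.9 normalized counts in stage 7.1 seeds, 196 and 137 in 7.2, 386 in 7.3, 1716 in 8.1, 1751 in 8.2, 1106 in 8.3, and 999 and 986 in stage 9 seeds. Its levels fell into the same order of stages as far as the peak, and stages 8.1 and 8.2 again overlapped in their intervals. Relative to stage 7.1, stage 9 was 12.9-fold higher for Glyma.09G072200 and 10.1-fold higher for Glyma.13G112600. Relative to fresh stage 7.2, stage 9 was 6.04-fold and 4.46-fold higher, in the same order of genes. The rise of both genes was complete by stage 8.1 or 8.2, before the final stages.

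The ARF19 homologues differed in when they made their steepest step. Glyma.13G112600 moved most between stages 7.2 and 7.3, by 1.58 on the log2 scale. Of the 25610 genes with a mean of at least 10 counts at both stages, 0.996% rose as much. Genes that rose from fewer counts are left out of such shares. For Glyma.09G072200 the steepest step came between stages 7.3 and 8.1, by 4.44-fold, and 0.378% of 23042 genes rose as much. Over that second interval Glyma.13G112600 rose 1.96-fold, which 6.83% of genes equalled. Single libraries stand behind stages 7.3 and 8.1, so these percentages describe those libraries.

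The reads of the pair, taken as a ratio within each library, show the shift without any scaling between libraries. Dried seeds held 2.04 and 1.83 reads of Glyma.13G112600 for each read of Glyma.09G072200. The ratio was 1.75 in fresh stage 7.1 seeds, 1.69 and 2.03 in 7.2, 2.36 in 7.3, 1.04 in 8.1, 1.08 in 8.2, 1.41 in 8.3, and 1.46 and 1.28 in stage 9 seeds. By its ratio, every library up to stage 7.3, and both dried libraries, lay above every library of stage 8.1 and later. Some intervals overlapped across that divide, such as those of stage 7.1 (1.31 to 2.35) and stage 8.3 (1.30 to 1.53). The largest contrast was between stages 7.3 and 8.1, with intervals of 2.07 to 2.68 and 0.954 to 1.13. The study describes its mapped reads as unambiguous, and their numbers equal the library totals for every library it lists. How reads that fit near-identical paralogues were treated is not otherwise stated. Reads of overlapping or antisense genes may have been shared between loci in the counting, which cannot be told apart here.

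**Figure D1:**
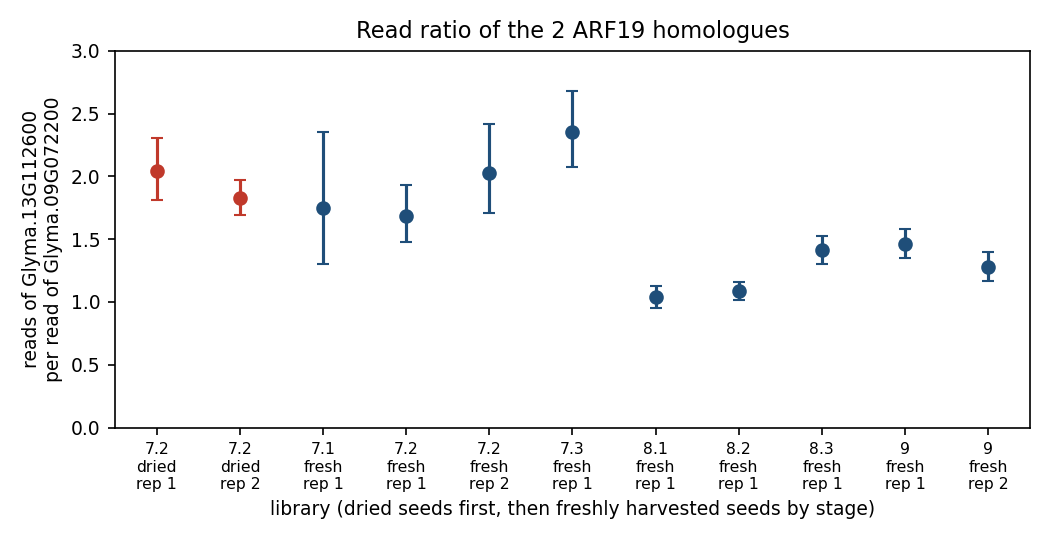
Ratio of the reads of Glyma.13G112600 to those of Glyma.09G072200 (vertical axis, reads per read) in each of 11 libraries (horizontal axis), dried seeds in red and freshly harvested seeds in blue, with 95% intervals for counting error. The dried libraries, at 2.04 and 1.83, sit with the fresh libraries of stages 7.1 to 7.3, and the ratio is lowest at stage 8.1, at 1.04.

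Among the genes that dropped, Glyma.10G210600 (ARF16) had 314 normalized counts in stage 7.1 seeds, 37.9 and 36.2 in 7.2, 40.5 in 7.3, 40.0 in 8.1, 64.0 in 8.2, 28.6 in 8.3, and 37.0 and 36.8 in stage 9 seeds. Its whole decline fell between stages 7.1 and 7.2, by 8.28-fold, and stage 9 matched fresh stage 7.2 to within the replicates (log2 ratio -0.01). The value at stage 8.2 rested on 64 counts with an interval of 49.3 to 81.8, which overlaps those of stages 7.3 and 8.1 but lies above those of stage 8.3 (18.9 to 41.6) and of both fresh stage 7.2 libraries. Arabidopsis ARF16 is known for its role in the root cap and, with ARF10, in seed dormancy.

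Glyma.13G325200 (ARF10) had 393 normalized counts in stage 7.1 seeds, 118 and 137 in 7.2, 74.3 in 7.3, 41.6 in 8.1, 33.0 in 8.2, 10.6 in 8.3, and 30.6 and 44.8 in stage 9 seeds. Unlike ARF16, this gene had a lower value at every step after stage 7.2 until stage 8.3. The intervals of stages 7.3 (57.5 to 94.5) and 8.1 (27.2 to 60.9) overlapped, as did those of 8.1 and 8.2 (22.7 to 46.4). Stage 9 lay 3.36-fold below fresh stage 7.2. The stage 8.3 value rested on 10 counts, with an interval of 5.08 to 19.5 that lies below both stage 9 values.

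Glyma.12G171000 (ARF4) had 155 normalized counts in stage 7.1 seeds, 27.2 and 17.8 in 7.2, 15.8 in 7.3, 7.99 in 8.1, 19.0 in 8.2, 8.48 in 8.3, and 14.4 and 9.19 in stage 9 seeds. The step from stage 7.1 to 7.2 was 6.79-fold, and from stage 7.3 on, where a library held 5 to 19 counts, the intervals of all stages overlapped. Arabidopsis ARF4 is known from organ polarity, where it is held down by trans-acting small RNAs.

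Glyma.03G208800 (ARF9) was high in stage 7.1 seeds alone, with 33.4 normalized counts there from 33 counts (interval 23.0 to 46.9). At stage 7.2 both fresh libraries held 0 counts, at stages 7.3 to 8.3 the libraries held 1 to 3 counts, and both stage 9 libraries held 0. With a count of 0 set at a floor of 3 counts per library and the stage 7.1 count taken as it stands, its level was at least 16.3-fold lower at fresh stage 7.2 and at least 9.69-fold lower at stage 9 than at stage 7.1. Dried seeds held 1 and 2 counts, no more than the later fresh libraries, so no response to drying was detectable at this depth.

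The early falls were shared by many other genes. Of 31563 genes with at least 10 counts at stage 7.1, 10.0% fell as much by stage 7.2 as Glyma.10G210600. The share was 12.3% for Glyma.12G171000 and 25.1% for Glyma.13G325200, which fell 3.08-fold. No minimum was set at stage 7.2, so shares of falls and of rises cover different sets of genes. For Glyma.03G208800, whose fall to 0 counts was sized with a pseudocount of 1, the share was 1.58%. Lectin moved with them, at 5915 and 9326 normalized counts at fresh stage 7.2, against 222640 at stage 7.1, and its part in these levels was not tested. In whole seeds, a change in the share of cells that express a gene and a change in the RNA per cell cannot be told apart.

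The balance within the set turned over accordingly. Of the reads on all 6 genes, 18.9% belonged to the ARF19 homologues at stage 7.1 (206 of 1090, 95% Clopper-Pearson interval 16.6 to 21.4). At stage 7.2 the pair held 97.1% and 95.2% in dried seeds and 74.2% and 68.5% in fresh seeds. In fresh seeds the share was 90.7% at stage 7.3 and between 96.1% and 98.1% in every library from stage 8.1 to stage 9. Dried stage 7.2 seeds thus showed shares above fresh stage 7.2 and 7.3 seeds, and close to those of the later stages.

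**Figure D2:**
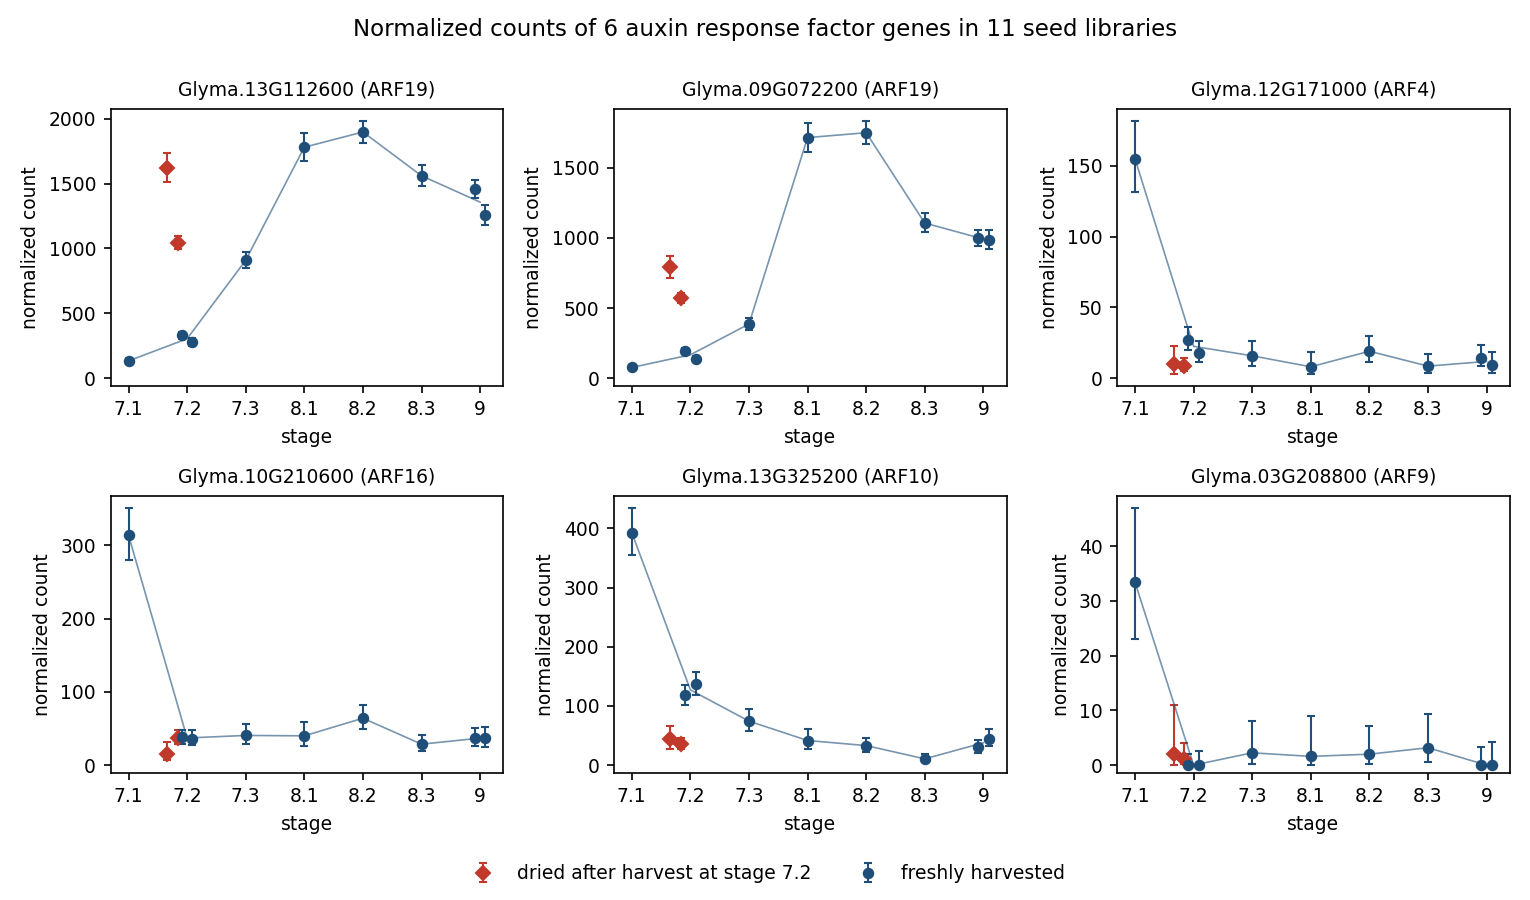
Normalized counts (vertical axis, linear scale, its own for each gene) of the 6 ARF genes by stage (horizontal axis), with freshly harvested libraries as blue circles, their stage means joined by a line, and dried stage 7.2 libraries as red diamonds drawn left of the fresh ones; bars are 95% Poisson intervals for counting error. The ARF19 homologues peak at stage 8.2, at 1899 and 1751, and the other 4 genes are highest at stage 7.1.

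Enforced drying at stage 7.2 sets seeds dried off the plant against seeds frozen at harvest. Water loss and the time spent detached at 30 °C cannot be told apart in it. The dried libraries had no part in the choice of the genes, but the fresh stage 7.2 libraries did, so the test is independent of that choice on the dried side only. Dried seeds had more RNA of both ARF19 homologues and less of ARF10 than fresh seeds of the same stage, ARF4 was lower by a margin that rested on few counts, ARF16 was not called, and ARF9 was too low to test. Of the 5 genes that passed the filter on low counts, 2 were called higher and 2 lower, with a call requiring at least a 2-fold change and an adjusted p under 0.05. Drying moved much of the transcriptome, and 15.0% of the 30132 genes tested were called higher and 17.9% lower, 32.8% in all. The median log2 fold change was -0.32 over the 5 genes and -0.05 over all genes tested.

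Glyma.13G112600 had 1619 and 1045 normalized counts in dried seeds, against 330 and 277 in fresh stage 7.2 seeds. The groups did not overlap, although the dried libraries differed from each other 1.55-fold. The log2 fold change was 2.15 (SE 0.274, adjusted p = 0.00408, quasi-likelihood test of edgeR, Benjamini-Hochberg adjusted). Both dried values lay between those of fresh stages 7.3 and 8.1.

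Glyma.09G072200 had 793 and 572 normalized counts in dried seeds, against 196 and 137 in fresh stage 7.2 seeds. Here too the groups were apart, and the dried values again fell between fresh stages 7.3 and 8.1. Its log2 fold change was 2.05 (SE 0.277, adjusted p = 0.00459, same edgeR test). Under every alternative processing tried, leaving out single libraries included, both ARF19 homologues were called higher at an adjusted p under 0.05, with log2 fold changes of 1.81 to 2.43 for Glyma.13G112600 and 1.81 to 2.33 for Glyma.09G072200. At the stricter adjusted p of 0.01 both also passed.

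Glyma.13G325200 (ARF10) had 43.4 and 35.4 normalized counts in dried seeds, against 118 and 137 in fresh stage 7.2 seeds. The groups did not overlap, and the dried values lay on either side of fresh stage 8.1. Drying changed it by -1.70 on the log2 scale (SE 0.251, adjusted p = 0.00562, edgeR), and it ranged from -1.85 to -1.52 over the alternatives.

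Glyma.12G171000 (ARF4) had 9.86 and 8.56 normalized counts in dried seeds, from 5 and 15 counts, against 27.2 and 17.8 in fresh stage 7.2 seeds. The values did not overlap, but all were low. Its log2 fold change was -1.31 (SE 0.410, adjusted p = 0.0469, edgeR), and the call was lost with DESeq2 (adjusted p = 0.210) and without dried replicate 2, fresh replicate 1 or fresh replicate 2 (adjusted p = 0.154, 0.395 and 0.118). Over all alternatives the adjusted p ran from 0.0235 to 0.395.

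Glyma.10G210600 (ARF16) had 15.8 and 37.1 normalized counts in dried seeds, from 8 and 65 counts, against 37.9 and 36.2 in fresh stage 7.2 seeds. The higher dried library lay between the fresh values and the other lay 2.35-fold below it. On drying it had a log2 fold change of -0.32 (95% interval -1.28 to 0.65, adjusted p = 0.542, edgeR). A single library decided this value, which was 0.03 without dried replicate 1 and -1.21 without dried replicate 2, where it was called lower (adjusted p = 0.0496). Over all alternatives the adjusted p ran from 0.0496 to 0.932.

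Lectin had 3331 and 3358 normalized counts in dried seeds, against 5915 and 9326 in fresh stage 7.2 seeds, and so moved with the drying. Its part in the levels of the ARF genes was not tested. The replicates are described as biological ones, and the p-values measure only the spread between these libraries.

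Seeds that had completed maturation on the plant were then set against seeds dried early off the plant, that is, stage 9 against dried stage 7.2. This comparison shares the dried libraries with the one above, and its stage 9 libraries were used in choosing the genes. None of the 4 genes that could be tested was called, nor did any reach an unadjusted p of 0.05, and DESeq2 called none of them either. In all, 7.79% of the 25797 genes tested were called, 2.76% higher and 5.02% lower.

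Glyma.13G112600 had 1458 and 1257 normalized counts at stage 9, against 1619 and 1045 in dried stage 7.2 seeds. The stage 9 values lay inside the range of the dried ones. Between them the log2 fold change was 0.01 with a 95% interval of -0.63 to 0.66 (adjusted p = 0.979, edgeR), and it ran from -0.27 to 0.38 over the alternatives. Without dried replicate 1 it was 0.38 (adjusted p = 0.00920), still far under 2-fold, and the adjusted p ran from 0.00920 to 0.979 over all alternatives.

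Glyma.09G072200 had 999 and 986 normalized counts at stage 9, against 793 and 572 in dried stage 7.2 seeds. Both stage 9 values were above both dried ones. The log2 fold change was 0.53 with a 95% interval of -0.00437 to 1.06 (adjusted p = 0.160, edgeR). Over the alternatives it lay between 0.31 and 0.80, always under the 2-fold required, with adjusted p from 8.56e-06 to 0.664, the smallest without dried replicate 1. The difference between the homologues in this comparison was not tested.

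Of the genes that had dropped, Glyma.13G325200 (ARF10) had 30.6 and 44.8 normalized counts at stage 9, against 43.4 and 35.4 in dried stage 7.2 seeds. These ranges overlapped, with a log2 fold change of -0.06 and a 95% interval of -0.86 to 0.74 (adjusted p = 0.918, edgeR). Glyma.10G210600 (ARF16) had 37.0 and 36.8 normalized counts at stage 9, against 15.8 and 37.1 in dried stage 7.2 seeds. Its log2 fold change was 0.32 with a 95% interval of -0.72 to 1.37 (adjusted p = 0.628, edgeR). Glyma.12G171000 (14.4 and 9.19 at stage 9, against 9.86 and 8.56 normalized counts in dried seeds) and Glyma.03G208800 did not pass the filter on low counts.

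**Figure D3:**
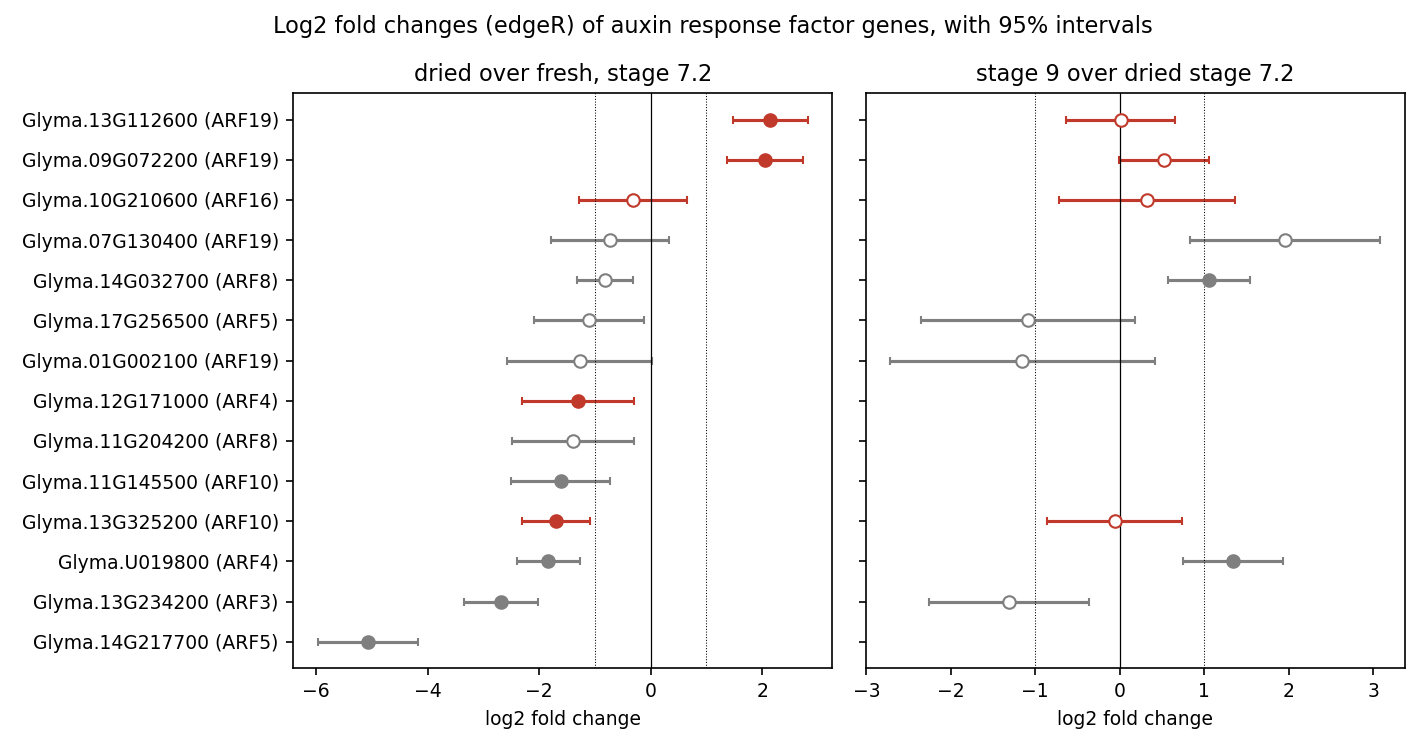
Log2 fold changes (horizontal axes) of the 14 ARF genes tested, with 95% intervals, for dried over fresh seeds at stage 7.2 (left) and stage 9 over dried stage 7.2 (right, genes tested there); red marks the 5 tested of the 6 genes described first, grey the other ARF genes, filled points pass the 2-fold and adjusted p thresholds, and dotted lines mark a 2-fold change. The ARF19 homologues Glyma.13G112600 and Glyma.09G072200 are the points called higher on the left, at 2.15 and 2.05.

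The lists of the study used here name 12 further ARF genes, and they allow the 6 to be set against their family. Of these, 9 come from its transcription factor network, chosen for variance over the fresh libraries, and 3 from its list of genes that differed between stage 9 and dried stage 7.2 seeds, so those 3 are not independent evidence in that comparison or, since it holds the dried libraries, in enforced drying. After enforced drying, 3 of the 6 network ARFs that could be tested were called lower by edgeR and 0 higher. At an unadjusted p under 0.05, 5 were lower and 0 higher, and DESeq2 called 2 of 9 lower and 0 higher. The network was chosen on the fresh libraries, so this test is independent of that choice on the dried side only. A gene could pass the filter on low counts through fresh seeds alone, as Glyma.14G217700 did (257 and 227 counts fresh, 1 and 9 dried). All 6 network ARFs tested by edgeR had a negative log2 fold change, with a median of -1.50, where 51.7% of all genes tested lay below 0. In the same fits without 1 library, 2 to 6 of them were called lower, the most without dried replicate 1. Over the 14 ARFs tested in all, 2 were called higher, both of them ARF19 homologues described above, and 6 lower, with a median of -1.29 against -0.05 over all genes tested, of which 15.0% were called higher and 17.9% lower. The 14 include the 3 genes chosen in part on the dried libraries.

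ARF19 was the annotation of 4 genes, and they did not share a course. Glyma.07G130400 had 185 and 71.3 normalized counts in dried seeds, against 196 and 215 in fresh stage 7.2 seeds, with a log2 fold change of -0.73 (adjusted p = 0.219, edgeR). In the fresh course it stood at 374 in 8.1, 712 in 8.2, 618 in 8.3, and 465 and 499 in stage 9 seeds, so that its fresh peak fell at the same stage as that of Glyma.13G112600 and Glyma.09G072200. At stage 9 against dried stage 7.2, where these 2 had log2 fold changes of 0.01 and 0.53, Glyma.07G130400 had 1.96 (95% interval 0.83 to 3.09, adjusted p = 0.0551, edgeR), but the study listed it for differing in this same comparison. Whether the ARF19 homologues differ in their response to drying was not tested as an interaction.

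The last of the ARF19 homologues, Glyma.01G002100, ran the other way over maturation, with 161 normalized counts in stage 7.1 seeds, 154 and 152 in 7.2, 118 in 7.3, 76.8 in 8.1, 41.0 in 8.2, 25.4 in 8.3, and 30.6 and 26.4 in stage 9 seeds. It had 106 and 31.4 in dried seeds, values far apart for replicates, and its log2 fold change on drying was -1.28 (adjusted p = 0.10, edgeR).

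The ARFs that fell hardest on drying lay outside the 6. Glyma.14G217700 has as its Arabidopsis match MONOPTEROS (ARF5), an activator needed to lay down the embryo's basal pole. It had 1.97 and 5.13 normalized counts in dried seeds, from 1 and 9 counts, against 145 and 155 in fresh stage 7.2 seeds. The log2 fold change was -5.07 (SE 0.366, adjusted p = 0.00202, edgeR), and its size rests on those few dried counts. Glyma.13G234200, matched to ETTIN (ARF3), a regulator of organ patterning, had 25.6 and 18.8 in dried seeds, against 133 and 144 in fresh seeds (log2 fold change -2.68, SE 0.272, adjusted p = 0.00269). Both genes also ended low on the plant, Glyma.14G217700 at 1.80 and 4.60 and Glyma.13G234200 at 8.11 and 9.19 normalized counts at stage 9.

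Another ARF4 homologue, Glyma.U019800, set the dried seeds apart from every fresh library. It had 37.5 and 36.5 normalized counts in dried seeds, against 137 and 131 in fresh stage 7.2 seeds, and its lowest fresh library, at stage 8.3, held 72.1. The log2 fold change on drying was -1.84 (SE 0.231, adjusted p = 0.00394, edgeR), and stage 9 (89.2 and 101) was higher than dried stage 7.2 by 1.34 (adjusted p = 0.0379). Glyma.14G032700, an ARF8 homologue, was likewise lowest in the dried seeds, with 118 and 103 normalized counts against 203 and 191 in fresh stage 7.2 seeds. Its log2 fold change on drying was -0.83, under the 2-fold required, and stage 9 (225 and 238) exceeded dried stage 7.2 by 1.06 (adjusted p = 0.0396, edgeR). The study listed both Glyma.U019800 and Glyma.14G032700 for differing between stage 9 and dried stage 7.2 seeds. Their low dried values and their differences in that comparison are therefore not independent of that choice. The calls at stage 9 against dried stage 7.2 were lost without either stage 9 library, when edgeR called 0 genes of the whole table.

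**Figure D4:**
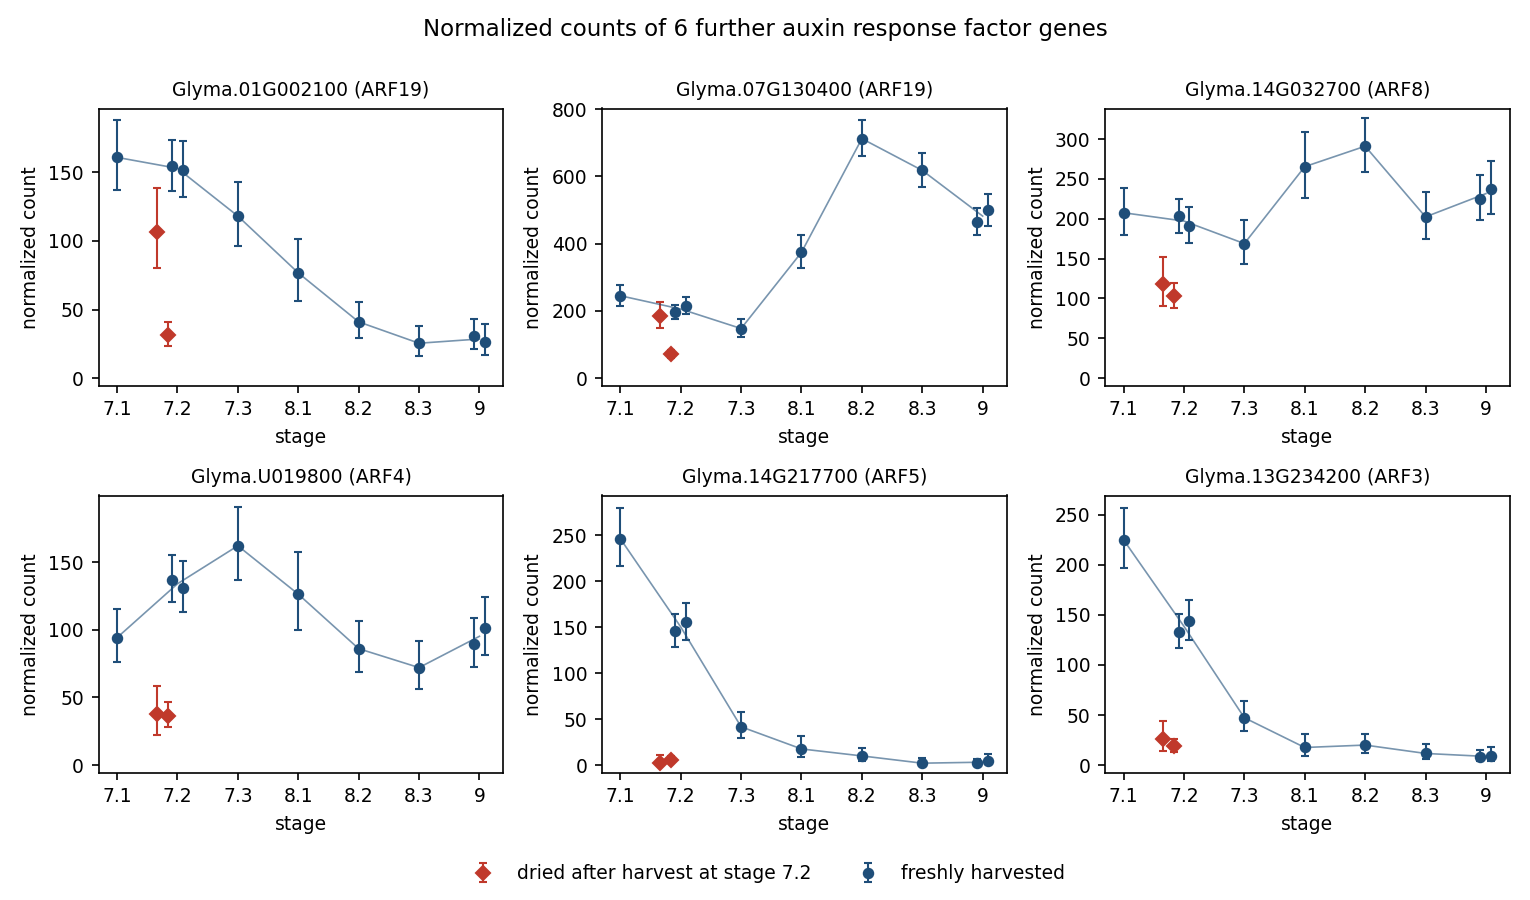
Normalized counts (vertical axis, linear, its own for each gene) of 6 further ARF genes by stage (horizontal axis), fresh libraries as blue circles with stage means joined, dried stage 7.2 libraries as red diamonds left of the fresh ones, and 95% Poisson intervals for counting error as bars. Glyma.07G130400 peaks at 712 at stage 8.2 with dried values of 185 and 71.3, and the dried values of Glyma.U019800, 37.5 and 36.5, lie below all of its fresh values.

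Aux/IAA genes encode the repressors that bind ARFs, and many are themselves switched on by auxin. Of 17 in the study's network, 12 could be tested on drying. The network was chosen on the fresh libraries, so here too the test is independent of that choice on the dried side only. Of the 12, 5 were called lower by edgeR and 0 higher, with a median log2 fold change of -1.12. At an unadjusted p under 0.05, 7 were lower and 0 higher, and DESeq2 called 5 lower and 0 higher. Over all genes tested on drying, 17.9% were called lower, 15.0% higher, and the median was -0.05, and without fresh replicate 2 the 5 became 3. The furthest was Glyma.02G142600, at a log2 fold change of -4.80 (adjusted p = 0.00202, edgeR). It had 3.94 and 7.99 normalized counts in dried seeds, from 2 and 14 counts, against 172 and 223 in fresh stage 7.2 seeds. Glyma.19G161000 followed at -4.50 (adjusted p = 0.0130, edgeR) but is a low gene, with 1 and 0 counts in the dried libraries. Like Glyma.02G142600, it passed the filter on low counts through fresh seeds alone, where it had 23 and 17 counts. Of the 7 Aux/IAA genes with at least 10 counts in each library of the drying comparison, 3 were called lower and 0 higher. At stage 9 against dried stage 7.2, 2 of 9 were called lower and 0 higher (5 and 1 at an unadjusted p under 0.05, 2 and 0 with DESeq2), against 5.02% and 2.76% of all genes tested, and none was called without either stage 9 library. The 2 called were Glyma.13G361200 (log2 fold change -2.78, adjusted p = 0.0405, edgeR) and Glyma.02G218100 (-2.69, adjusted p = 0.0377). Both had also been called lower on drying, so they fell below fresh stage 7.2 in the dried seeds and stood lower still at stage 9. They rest on few counts, with 7 and 3 at stage 9 for Glyma.13G361200 and 3 and 2 for Glyma.02G218100. Of the 5 Aux/IAA genes with at least 10 counts in each library of stage 9 and dried stage 7.2, 0 were called in that comparison.

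The genes whose pattern was most like each ARF were looked up by Pearson correlation of log2(normalized count + 1) over the 11 libraries, which share stages and depth, among the 20766 genes whose count was 10 or more throughout. Glyma.13G112600 ran closest to Glyma.15G181000 (r = 0.997) and Glyma.15G253100 (r = 0.993), and 527 genes passed 0.95. For Glyma.09G072200 they were Glyma.05G035900 (r = 0.993) and Glyma.16G199400 (r = 0.992), with 482 genes past 0.95, and the ARF19 homologues themselves correlated at 0.974. Fewer genes passed 0.95 for the declining genes. Whether their low counts at later stages play a part was not tested. For Glyma.12G171000, 46 genes passed, led by Glyma.04G115500 and Glyma.06G030100 (r = 0.976 and 0.970). For Glyma.13G325200, 32 passed, led by Glyma.02G045400 and Glyma.15G060700 (r = 0.975 and 0.974). For Glyma.10G210600, 5 passed, led by Glyma.06G322700 and Glyma.11G002400 (r = 0.968 and 0.962). No gene passed 0.95 for Glyma.03G208800, whose nearest were Glyma.02G152000 and Glyma.12G022100 at 0.921 and 0.913. Names for these 12 genes were not looked up.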

How the data were processed

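RNA of whole soybean seeds was sequenced as single-end reads after a TruSeq RNA preparation. The authors discarded adaptors and reads of low complexity, aligned the rest with Bowtie2 to the soybean reference genome and deposited whole-number counts per transcript, 1 transcript a gene, without normalization. The counting program and its strand setting are not given in the sources used here. A line without a gene name held 0 counts. Columns were matched to samples by their labels.

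Both tests used edgeR 4.0.16 (TMM scaling, its filter on low counts, quasi-likelihood test, two-sided, Benjamini-Hochberg adjustment over all genes tested) on the 4 libraries compared. A call needed a log2 fold change of 1 or more in size and an adjusted p under 0.05. DESeq2 1.42.0 gave size factors and an alternative test. Course ratios used a pseudocount of 1. Other alternatives changed scaling, filter, thresholds, samples, the replicate block and single libraries.

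The genes and lists were chosen with earlier results of these data known. Named genes were the 6 ARFs, the 2 most similar genes to each, the 2 largest changes called per list and direction, and the 3 ARFs of the study's list for stage 9 against dried seeds. Glyma.01G002100 was named after its values were seen. No identifier matched the reference gene table, so no sequences, lengths or further pathway lists were used.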

Additional observations from a re-analysis of the deposited data

How the results depend on the processing

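Across the alternatives, 92 fold changes of the 5 ARF genes tested kept their direction and call, 6 kept the direction but lost the call, 1 gained a call (Glyma.10G210600 on drying, without dried replicate 2) and 6 changed sign. Alternatives that changed only a threshold reused the main fit, so only the call could change there, not the fold change. All 6 lost calls were those of Glyma.12G171000 on drying. Its log2 fold changes were -1.28 with DESeq2, -1.19 with the replicate block (adjusted p = 0.0716, edgeR) and -1.31 at an adjusted p under 0.01. With single libraries left out they were -1.57 to -0.95. Leaving out single libraries put Glyma.10G210600 at -1.21 to 0.031 on drying, and at stage 9 against dried stage 7.2 put Glyma.10G210600 at -0.0066 to 1.20, Glyma.13G112600 at -0.27 to 0.38 and Glyma.13G325200 at -0.34 to 0.19. On drying, 9894 genes were called, against 5920 with at least 10 counts in every library, 4864 at an adjusted p under 0.01, and 4857 (without fresh replicate 1) to 13026 (without dried replicate 1) with single libraries left out, 5159 without fresh replicate 2. At stage 9 against dried stage 7.2, 2009 genes were called, against 4728 with no filter, 3521 with all 11 libraries in the fit and 2372 with DESeq2. The count there was 0 at an adjusted p under 0.01 (8179 genes at an unadjusted p under 0.05), and 0 to 6160 with single libraries left out. It was 0 without stage 9 replicate 1 or 2 (3198 and 3898 genes at an unadjusted p under 0.05), 6160 without dried replicate 1 and 3399 without dried replicate 2. In such fits the lone library is assumed to vary like those of the other group. The replicate block gave 10072 and 3007 calls, and deviations of same-numbered libraries correlated at 0.05 and 0.09, so the numbers were not taken to pair the libraries. The log2 ratio of stage 9 to stage 7.1 moved by more than its narrow replicate spread for Glyma.09G072200 (3.72 with size factors of the 9 fresh libraries, 3.80 with TMM, 3.71 with library totals, 3.71 and 3.62 with pseudocounts of 0.1 and 5, against 3.69) and for Glyma.10G210600 (-3.03, -2.95, -3.04, -3.09 and -2.93 in the same order, against -3.06). The log2 ratio of stage 9 to fresh stage 7.2 of Glyma.10G210600 was -0.22 with library totals, against -0.01. Where no cause is named, the cause was not tested. With at most 2 libraries a group, 3 counts or fewer for Glyma.03G208800 after stage 7.1 and as few as 5 for Glyma.12G171000, depth limits what can be said of those genes.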
